A study of Arabidopsis thaliana with 9 samples.

Results

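The transcriptome of zmp-2 mutant seedlings was compared with that of wild-type (WT) seedlings across 18109 genes, and the changes are described here by the pathways and functions of the genes. The comparison takes the 3 libraries labelled zmp-2 and the 3 labelled WT, 6 of the 9 libraries of the series, and the remaining 3 come from a second insertion allele, zmp-1. According to the labels, zmp-2 carries the T-DNA line SALK_008955 and zmp-1 the line SALK_066029, both in Arabidopsis thaliana ecotype Col-0, and WT is Col-0 without an insertion. All plants were grown under long days, and polyadenylated RNA was sequenced from seedlings aged 12 days. Each mutant genotype is a single insertion line, and no library of a complemented line was analysed here, so that the loss of ZMP and any other change carried by line SALK_008955 cannot be told apart.

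ZMP is a protein with zinc-finger, SWIB/MDM2 and Plus-3 domains that associates with RNA polymerase IV, the plant polymerase whose short transcripts are turned into small interfering RNAs. These small RNAs guide DNA methylation, mainly to transposons and repeats, and most protein-coding genes are transcribed independently of this pathway. The question addressed is which mRNAs differ in level when ZMP is disrupted.

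Library totals were between 14390276 and 14522744 counts in zmp-2 and between 8849896 and 14561647 counts in WT, with 62.8% ± 2.99 (SD, n = 3) of the counts on chloroplast genes in zmp-2 and 59.7% ± 4.0 in WT. The paper's methods name inflorescences as the tissue, whereas the labels name seedlings, as does the paper's figure caption on ZMP transcripts. Of 8 floral organ identity genes, 1 had enough counts to be tested, AG had 0 counts in all 6 libraries, and the summed level of the 8 genes was between 1.60 and 1.87 CPM (library-size scaled counts) in zmp-2 and between 1.72 and 3.26 in WT. The defining flower genes were thus at or near 0 in both genotypes. In the Casparian strip and heat chaperone genes given here, a single WT library stood apart from the others. In the cold-regulated list, the zmp-2 libraries differed more than the WT libraries. This list summed to between 507 and 1064 TMM-scaled CPM in zmp-2 and between 645 and 942 in WT. The Casparian strip genes CASP1 to CASP5, which mark the root endodermis, summed to between 0.826 and 1.39 CPM in zmp-2, against 0.652 and 1.02 in WT replicates 1 and 3 and 8.86 in WT replicate 2. They were singled out after their values were seen from 14 root markers, whose sum, mostly PYK10, was between 447 and 590.1 CPM in zmp-2 and between 301 and 458 in WT. WT replicate 2 was also high in other root markers. It had 31 counts for EXPA7 and 75 for PER64, against 3 and 5 and against 0 and 3 in WT replicates 1 and 3. EXPA18 and MYB36 were high in it as well. ESB1 and PRP1 were not, with 1 and 0 counts in it, and PRP3 had 7 counts in it against 0 and 6. The 16 heat chaperone and cofactor genes described below summed to between 167 and 218 TMM-scaled CPM in zmp-2, against 377 and 319 in WT replicates 1 and 2 and 1054 in WT replicate 3. The medians that these libraries moved most are given with and without them.

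Counts were tested with edgeR's quasi-likelihood test, and the threshold for a call was an adjusted p of 0.05 by the Benjamini-Hochberg method across the whole table. Levels are in TMM-scaled CPM, the count relative to a library size corrected for composition. A total of 16 genes rose and 16 fell in zmp-2, or 0.0884% of the genes tested in each direction and 0.177% in both. These calls rest on a spread estimated from all 9 libraries of the series, and with the 6 libraries alone 1 gene rose (CYP706A6) and 0 fell, with 933 higher and 917 lower at an unadjusted p under 0.05. At an unadjusted p under 0.05, 1067 genes were higher (5.89%) and 1129 lower (6.23%). All zmp-2 libraries lay above all WT libraries for 1583 genes (8.74%) and below them for 1361 genes (7.52%). Over all genes tested, 8709 had a positive and 9400 a negative log2 fold change, and the median was −0.02. With library size alone in place of TMM it was −0.10, and 7 genes rose and 13 fell, so that values below are relative to the TMM scale. These shares and this median are the background against which the groups of genes below are set. The labels number the replicates with the prefix br, which the paper uses for biological replicate in its other sequencing. They do not say how plants were divided among the libraries, so the p-values measure the spread between these libraries.

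ZMP itself (AT5G63700), on the minus strand of chromosome 5 from 25493707 to 25497764 in TAIR10.1, had 22, 13 and 20 counts in the zmp-2 libraries, against 58, 103 and 74 in the WT libraries. Its level was 1.5, 1.00 and 1.32 CPM in zmp-2 and 5.53, 6.76 and 7.48 CPM in WT, and the groups did not overlap. The log2 fold change was −2.35 with a standard error of 0.263 (edgeR adjusted p = 0.0101), in the direction that the zmp-2 label gives. An exact two-sided permutation test of these libraries cannot go below p = 0.1, and gave this value.

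**Figure D1:**
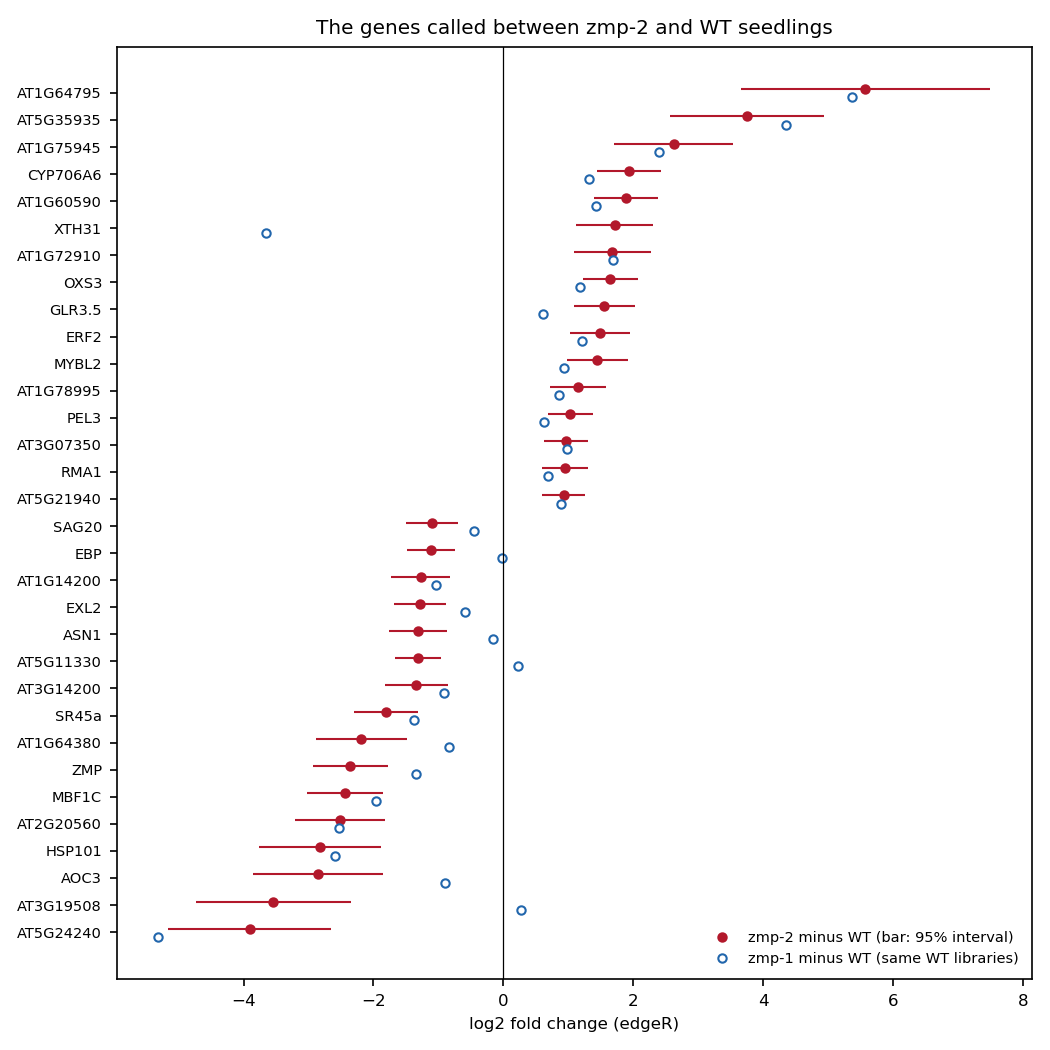
Log2 fold change (x axis) of the 32 genes called between zmp-2 and WT, 1 gene per row, as filled points with 95% confidence intervals, and of the same genes in zmp-1 against the same WT libraries as open points. The called genes range from 5.58 for AT1G64795 to −3.91 for AT5G24240, and XTH31 is the gene whose 2 points lie farthest apart, at 1.72 in zmp-2 and −3.65 in zmp-1.

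Of the 16 genes that fell in zmp-2, 3 were listed as heat chaperones and cofactors. Heat-inducible chaperones refold or disaggregate proteins that unfold in warm cells, and their genes are switched on within minutes by heat shock transcription factors. Of a list of 16 chaperones and cofactors, 3 fell and none rose. All 16 had a negative log2 fold change, against 9400 of all 18109 genes tested, with a median of −1.78. The list was chosen with earlier results of these data known and holds the 3 called genes, so that its counts partly restate those calls. MBF1C, a transcriptional coactivator required for thermotolerance, had 2.53, 5.63 and 3.84 CPM in zmp-2, against 19.4, 22.1 and 23.54 CPM in WT. It was among the tightest differences in the comparison, since its WT libraries were alike and the highest zmp-2 library was far below the lowest WT library (log2 fold change −2.44, standard error 0.269, edgeR adjusted p = 0.0101). AT2G20560, a DnaJ-type cochaperone, had 2.05, 3.55 and 2.52 CPM in zmp-2, against 12.4, 11.1 and 22.8 CPM in WT (log2 fold change −2.51, standard error 0.316, edgeR adjusted p = 0.0115). HSP101, the ClpB-type disaggregase needed for acquired thermotolerance, had 4.98, 7.32 and 7.35 CPM in zmp-2, against 30.0, 22.7 and 86.8 CPM in WT (log2 fold change −2.82, standard error 0.432, edgeR adjusted p = 0.0352). WT replicate 3 was the highest library for both of these genes, and the zmp-2 libraries were below all WT libraries in each case.

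**Figure D2:**
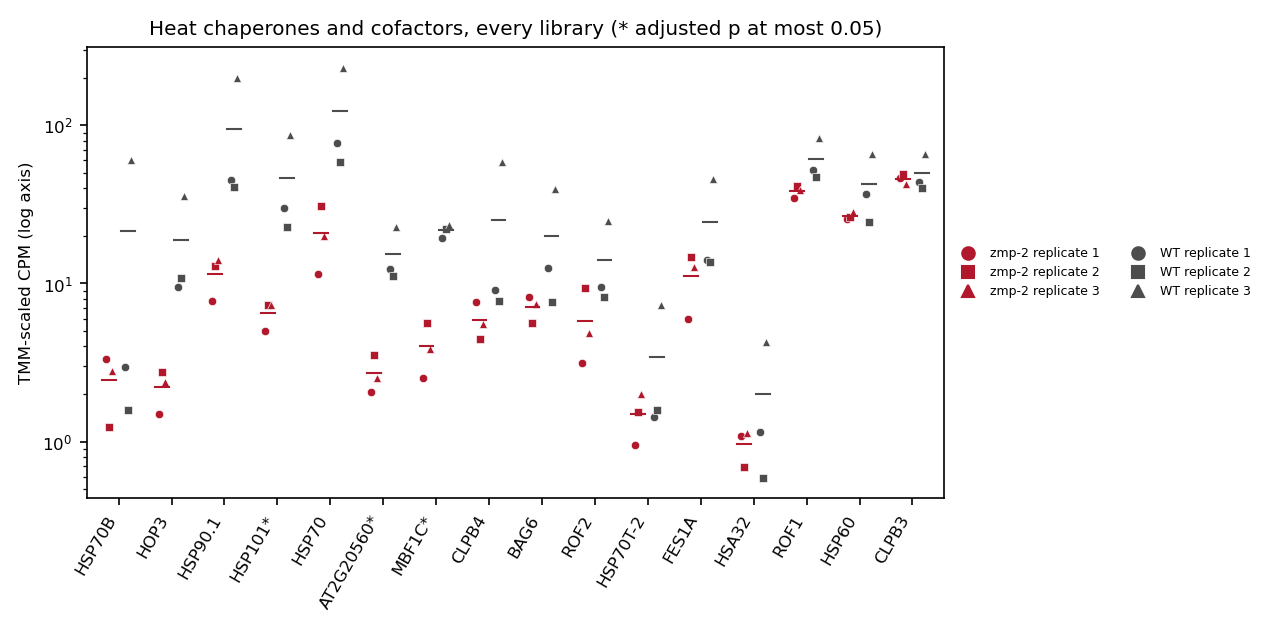
TMM-scaled CPM (log axis) of the 16 heat chaperones and cofactors in each zmp-2 and WT library, with symbols for the replicate number and a line at each group's mean. WT replicate 3 is the highest WT library for every gene shown, while MBF1C, at 19.4, 22.1 and 23.54 in WT, differs from zmp-2 to a like degree in all WT libraries.

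With the 3 called genes included, 13 of the 16 genes had an unadjusted p under 0.05, all of them lower, against 6.23% of all genes tested. In 8 the zmp-2 libraries lay below all WT libraries, against 7.52% of all genes tested. HSP90.1, an inducible cytosolic HSP90, had 7.72, 12.9 and 14.0 CPM in zmp-2, against 45.0, 40.7 and 198 CPM in WT (log2 fold change −3.03, edgeR adjusted p = 0.0623). HOP3, which links HSP70 to HSP90, had 1.5, 2.78 and 2.38 CPM in zmp-2, against 9.53, 10.8 and 36.0 CPM in WT (log2 fold change −3.07, edgeR adjusted p = 0.0508). With the replicate number as a block, the edgeR adjusted p was 0.0430 for both genes, and 5 members were called. Other members owed their value to 1 library. HSP70B had 3.35, 1.23 and 2.78 CPM in zmp-2, against 2.96, 1.57 and 60.1 CPM in WT, and its log2 fold change moved from −3.10 to 0.15 without WT replicate 3. The median of the list was −0.50 without that library, with 7 members lower at an unadjusted p under 0.05 and 5 called. MBF1C, AT2G20560, HSP101 and HSP90.1 were then called with an edgeR adjusted p of 0.0177, 0.0177, 0.0176 and 0.0177, and HOP3 with 0.0462. HSP90.1 and HOP3 were not called with all libraries.

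The heat shock transcription factors divided by member. Among the 17 tested, 4 were lower and 2 higher at an unadjusted p under 0.05, none was called, and the median was −0.03. HSFA2, itself heat-induced and an amplifier of the response, had 0.478, 2.54 and 0.927 CPM in zmp-2, against 8.77, 3.94 and 6.16 CPM in WT (log2 fold change −2.26, edgeR adjusted p = 0.161). HSFB1, HSFA7A and HSFB2B had log2 fold changes of −1.59, −1.76 and −0.76 (edgeR adjusted p = 0.209, 0.210 and 0.213). In the other direction, the highest log2 fold change of the list was 0.93. The zmp-2 libraries lay above all WT libraries in 2 of the 17 members and below them in 3, against 8.74% and 7.52% of all genes tested. Chaperones of the endoplasmic reticulum had 13 of 13 negative values with a median of −0.31 (−0.17 without WT replicate 3), of which 2 had an unadjusted p under 0.05. BZIP60, a transcription factor of the unfolded protein response, had 21.9, 15.4 and 19.4 CPM in zmp-2, against 23.0, 28.9 and 61.5 CPM in WT (log2 fold change −1.0, and −0.45 without WT replicate 3). Of the 15 genes listed as small heat shock proteins, 8 were not matched by symbol and not examined under this list, and of the other 7 only HSP18.2 had enough counts to be tested. It had 0.41, 0.77 and 0.86 CPM in zmp-2, against 0.19, 0.39 and 7.17 CPM in WT, where 3 counts equal between 0.206 and 0.339 CPM. Its value of −1.87 became 1.14 without WT replicate 3, and the latter rests on few reads. Among 23 tested genes annotated as HSP20-like chaperones, a family added after the values were seen, 3 were higher and 6 lower at an unadjusted p under 0.05, with a median of −0.09.

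A further 2 called genes are a stress-induced splicing factor and a cochaperone outside that list. SR45a, a stress-induced RNA-binding protein of the splicing machinery, had 6.83, 6.71 and 8.15 CPM in zmp-2, against 31.7, 17.84 and 26.6 CPM in WT (log2 fold change −1.80, standard error 0.223, edgeR adjusted p = 0.0107). AT3G14200, another DnaJ-domain protein, had 5.60, 9.02 and 8.61 CPM in zmp-2, against 24.1, 18.6 and 16.1 CPM in WT. Its log2 fold change was −1.34 with a standard error of 0.220 (edgeR adjusted p = 0.0393, and 0.0633 with the replicate block). Among all 109 DnaJ proteins tested, 13 were lower and 6 higher at an unadjusted p under 0.05, and the median was −0.03.

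Of the jasmonate, camalexin and salicylic acid genes, AOC3 alone was called. Jasmonate is a lipid-derived hormone of wounding and defence, made from linolenic acid by lipoxygenases, allene oxide synthase, allene oxide cyclases and OPR3. Of 13 biosynthesis genes, 1 fell, 12 had negative values and the median was −0.47. AOC3, one of the allene oxide cyclases, had 0.819, 0.694 and 0.927 CPM in zmp-2, against 2.29, 5.97 and 9.70 CPM in WT. The groups did not overlap, and the log2 fold change was −2.86 with a standard error of 0.460 (edgeR adjusted p = 0.0355, and 0.0708 without WT replicate 3). OPR3 had 15.5, 12.8 and 11.1 CPM in zmp-2, against 28.4, 15.8 and 70.1 CPM in WT (log2 fold change −1.53, edgeR adjusted p = 0.206). The most abundant member, LOX2, had 133, 176 and 191 CPM in zmp-2 and 155, 121 and 417 CPM in WT, so that only WT replicate 3 was above the zmp-2 libraries. Of 15 signalling and response genes, none was called, 3 were lower at an unadjusted p under 0.05 (CYP94B3, which inactivates the hormone, and the repressors JAZ10 and JAZ9), and the median was −0.38. Without WT replicate 3, the medians of these lists were −0.22 and −0.06.

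Camalexin is the main sulphur-containing phytoalexin of Arabidopsis, and it shares its tryptophan-derived precursor with the indole glucosinolates. All 11 genes of this list had negative values, with a median of −0.75, 5 had an unadjusted p under 0.05, and none was called. PAD3, which catalyses the final step to camalexin, had 0.615, 0.463 and 3.31 CPM in zmp-2, against 2.67, 5.97 and 45.9 CPM in WT (log2 fold change −3.59, edgeR adjusted p = 0.203, and 0.0430 with the replicate block). GSTF6, the most abundant member, had 8.95, 12.9 and 95.8 CPM in zmp-2, against 22.6, 294 and 201 CPM in WT. Replicate 3 was the highest library of zmp-2 for PAD3 and GSTF6, and none of the 11 genes had groups that did not overlap. The median was −0.72 without WT replicate 3 and −0.37 without WT replicate 2, the library with the high Casparian strip genes, whose part in the result was not tested. Genes of salicylic acid defence had a median of −0.20 over 14 members, which was 0.34 without WT replicate 2, and 1 member, WRKY70, was higher at an unadjusted p under 0.05 (32.9, 26.0 and 20.6 CPM in zmp-2, against 6.77, 18.9 and 14.9 CPM in WT).

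**Figure D3:**
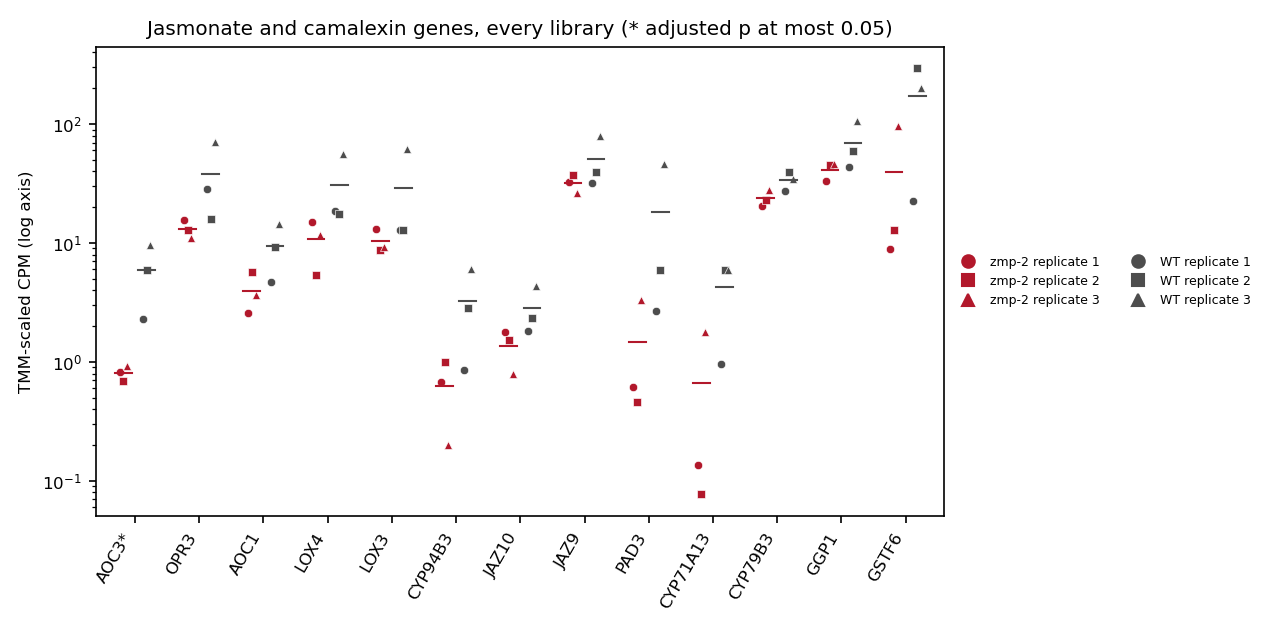
TMM-scaled CPM (log axis) of jasmonate biosynthesis genes (AOC3 to LOX3), jasmonate signalling and response genes (CYP94B3 to JAZ9) and camalexin and indole glucosinolate genes (PAD3 to GSTF6) in each zmp-2 and WT library, with a line at each group's mean. AOC3, at 0.819, 0.694 and 0.927 in zmp-2 and at 2.29, 5.97 and 9.70 in WT, is the called gene, and WT replicate 3 is the highest library for most of the others.

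Transcription factors of rapid stress signalling went in both directions. Of 17 tested, 3 were higher and 5 lower at an unadjusted p under 0.05, with a median of −0.27, which was 0.39 without WT replicate 2. WRKY18, a regulator of basal defence, had 10.9, 6.01 and 8.55 CPM in zmp-2, against 23.4, 24.5 and 37.8 CPM in WT, without overlap (log2 fold change −1.74, edgeR adjusted p = 0.0623). The ethylene-responsive factors ERF104 and ERF5 had positive values, with 120, 56.9 and 71.5 CPM for ERF104 in zmp-2, against 22.9, 39.6 and 21.3 CPM in WT (log2 fold change 1.56, edgeR adjusted p = 0.161). A related gene that was called, ERF2, activates genes with a GCC box and had 45.1, 37.5 and 29.7 CPM in zmp-2, against 10.2, 13.3 and 16.4 CPM in WT (log2 fold change 1.5, standard error 0.210, edgeR adjusted p = 0.0271). EBP, also an ethylene-responsive factor and known for its role in low oxygen, fell instead. It had 38.4, 52.5 and 51.1 CPM in zmp-2, against 117, 95.6 and 95.4 CPM in WT (log2 fold change −1.12, standard error 0.17, edgeR adjusted p = 0.0352, and 0.0532 with the replicate block). AT1G64380, an AP2/ERF-type protein, fell as well, with 1.37, 2.24 and 2.45 CPM in zmp-2, against 11.4, 7.81 and 8.39 CPM in WT (log2 fold change −2.18, standard error 0.321, edgeR adjusted p = 0.0274).

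The promoters of 3 called genes from these groups are shown because they hold the motifs that were searched, and because no annotated exon lies in the window. Each is the 300 bases before the RefSeq gene start in TAIR10.1, from 5′ to 3′ on the strand of the gene, with matches in capitals.
ZMP, minus strand, chr5:25497765-25498064: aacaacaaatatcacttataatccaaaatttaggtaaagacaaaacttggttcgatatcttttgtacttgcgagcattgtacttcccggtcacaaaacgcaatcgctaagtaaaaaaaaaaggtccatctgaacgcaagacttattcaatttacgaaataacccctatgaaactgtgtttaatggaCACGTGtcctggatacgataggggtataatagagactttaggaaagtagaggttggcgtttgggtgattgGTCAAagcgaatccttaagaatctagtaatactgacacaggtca
AOC3, plus strand, chr3:9408860-9409159: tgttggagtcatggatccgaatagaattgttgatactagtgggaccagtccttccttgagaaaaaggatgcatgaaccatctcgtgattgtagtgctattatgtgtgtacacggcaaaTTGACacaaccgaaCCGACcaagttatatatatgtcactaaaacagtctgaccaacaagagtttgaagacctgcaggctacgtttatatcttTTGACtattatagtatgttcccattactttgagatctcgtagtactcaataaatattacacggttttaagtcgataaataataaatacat
ERF2, minus strand, chr5:19172957-19173256: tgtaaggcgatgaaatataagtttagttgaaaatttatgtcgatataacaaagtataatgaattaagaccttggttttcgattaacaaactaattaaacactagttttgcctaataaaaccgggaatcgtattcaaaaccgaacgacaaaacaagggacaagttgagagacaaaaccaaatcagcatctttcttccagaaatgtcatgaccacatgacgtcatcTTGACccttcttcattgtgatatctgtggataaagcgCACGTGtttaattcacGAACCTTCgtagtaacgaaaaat

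The search used the heat shock element GAANNTTC, the G-box CACGTG, the evening element AAAATATCT, the W-box TTGAC and the CRT/DRE core CCGAC, on both strands, in the windows of 31 of the 32 called genes. ZMP has a G-box that begins 114 bases before the gene start and a W-box at 44, here as GTCAA, its reverse complement. AOC3 has W-boxes at 182 and 90 and a CRT/DRE core at 168, and ERF2 has a W-box at 76, a G-box at 39 and a heat shock element at 23. The heat shock element was found in none of the 16 windows of genes that fell and in 3 of 15 of genes that rose, against 11.5% of 27443 protein-coding genes. It was found in 2 of the 16 windows of the listed heat chaperones and cofactors (12.5%). The windows of the called genes MBF1C, AT2G20560 and HSP101 hold 300, 264 and 76 bases of annotated exon, so that they say little about these genes. The W-box was found in 10 of 16 and 7 of 15 windows, against 50.4% of all genes, the G-box in 2 of 16 and 1 of 15, against 7.09%, the CRT/DRE core in 1 of 16 and 3 of 15, against 13.9%, and the evening element in 1 of 16 and 1 of 15, against 2.79%. A match is a description of the letters and not a binding site, and 13 of the 31 windows overlap an annotated exon, 9 of them windows of genes that fell.

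No member of the cell division, flowering time, clock, light or photosynthesis lists was called. Cyclins and cyclin-dependent kinases drive the cell cycle in meristems and young leaves, and all 15 tested members had positive values, with a median of 0.60. Of all 18109 genes tested, 8709 had positive values. None of the 15 was called, and 7 were higher at an unadjusted p under 0.05, against 5.89% of all genes. In 9 the zmp-2 libraries lay above all WT libraries, against 8.74% of all genes. Such counts do not take into account that members of a list can shift together within a library. CYCA1;1, a mitotic cyclin, had 7.85, 11.7 and 8.48 CPM in zmp-2, against 4.67, 5.38 and 4.24 CPM in WT (log2 fold change 0.96, standard error 0.209, edgeR adjusted p = 0.134). KN, the cytokinesis syntaxin KNOLLE, had 12.3, 14.8 and 10.9 CPM in zmp-2, against 9.34, 5.97 and 5.56 CPM in WT (log2 fold change 0.87, edgeR adjusted p = 0.212). CYCB1;1 had 4.30, 4.63 and 4.70 CPM in zmp-2, against 2.57, 3.28 and 2.22 CPM in WT. The summed level of the list was 84.6, 97.1 and 81.1 CPM in zmp-2 and 61.2, 62.3 and 52.4 CPM in WT, without overlap. The median was 0.63 without WT replicate 3 and 0.52 with library size alone.

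**Figure D4:**
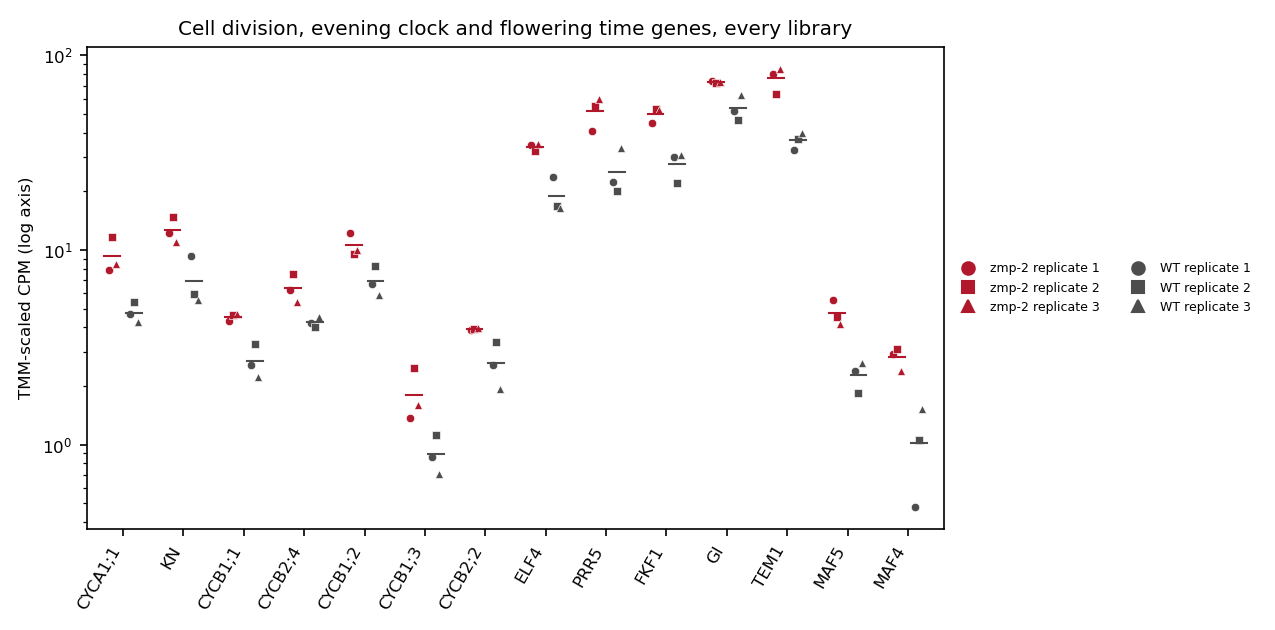
TMM-scaled CPM (log axis) of the cell division genes (CYCA1;1 to CYCB2;2), evening clock genes (ELF4 to GI) and flowering time genes (TEM1 to MAF4) with the smallest unadjusted p in each list, in every zmp-2 and WT library, with a line at each group's mean. For each gene shown, the 3 zmp-2 libraries lie above the 3 WT libraries, and none of these genes was called.

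Flowering time regulators had a median of 0.57, and all 8 tested were positive. TEM1, a repressor of the florigen gene FT, had 80.3, 63.4 and 85.3 CPM in zmp-2, against 32.8, 37.1 and 39.9 CPM in WT. Every zmp-2 library was thus well above every WT library, and the log2 fold change was 1.06 with a standard error of 0.185 (edgeR adjusted p = 0.0546, and 0.0470 with the replicate block). MAF5 and MAF4, floral repressors of the FLC family, had log2 fold changes of 1.07 and 1.46 (edgeR adjusted p = 0.163 and 0.172). MAF4 had 2.94, 3.08 and 2.38 CPM in zmp-2, against 0.477, 1.05 and 1.52 CPM in WT. The median of the list moved between 0.14 and 0.74 as single libraries were left out.

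In the circadian clock, whose morning and evening genes repress each other in turn, values were higher for part of the evening genes. Of 14 tested, 4 were higher at an unadjusted p under 0.05 and none lower, and the median was 0.13. PRR5 had 41.0, 55.1 and 60.02 CPM in zmp-2, against 22.3, 20.2 and 33.2 CPM in WT (log2 fold change 1.05, edgeR adjusted p = 0.134, and 0.0470 with the replicate block). ELF4, a component of the evening complex, had 34.5, 32.1 and 34.9 CPM in zmp-2, against 23.7, 16.8 and 16.5 CPM in WT (log2 fold change 0.83, edgeR adjusted p = 0.134). FKF1 and GI, which together act in day-length sensing, had log2 fold changes of 0.86 and 0.45. The most abundant gene of the list, GRP7, had 978, 855 and 909 CPM in zmp-2 and 1189.8, 767 and 923 CPM in WT, with groups that overlapped. Among 11 morning genes, 1 was higher and none lower at an unadjusted p under 0.05, and CCA1 and LHY had between 0.205 and 5.86 CPM in zmp-2 and between 1.05 and 13.0 CPM in WT. The hour of harvest is not given in the sources used here. Light receptors and regulators had 13 of 16 positive values with a median of 0.31, and SPA1, a partner of the ubiquitin ligase COP1, had 40.8, 63.5 and 54.1 CPM in zmp-2, against 24.6, 31.3 and 34.8 CPM in WT (log2 fold change 0.80, edgeR adjusted p = 0.190).

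Photosynthesis genes of the nucleus had mostly positive values of small size. Of 37 tested, 35 were positive, against 8709 of all 18109 genes tested, with a median of 0.21 and a highest value of 0.66. An unadjusted p under 0.05 was reached by 2 members (5.41%), both higher, against 5.89% of all genes. The summed level of the list was between 30508 and 33072 CPM in zmp-2 and between 24420 and 31770 CPM in WT, so that the groups overlapped. Members of a list can shift together within a library, which a count of signs does not take into account. PSAE-1, a subunit of photosystem I, had 176, 239 and 180 CPM in zmp-2, against 135, 133 and 124 CPM in WT (log2 fold change 0.60, edgeR adjusted p = 0.223). The most abundant, LHCB1.3, had 4621, 5810 and 4863 CPM in zmp-2 and 5589.8, 5082 and 5017 CPM in WT, with overlap. The median was 0.14 with library size alone.

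In cell wall remodelling, 1 of 26 listed genes was called, XTH31, and the median was −0.37. Xyloglucan endotransglucosylases (XTHs) cut and rejoin the xyloglucan that tethers cellulose, whereas expansins loosen the wall without cutting it. Among the 18 XTH genes tested, 9 were lower and 1 higher at an unadjusted p under 0.05, with a median of −0.64. Among the 8 expansins of the same list, 3 were higher and none lower, with a median of 0.62. All 16 tested genes annotated as expansins gave 5 higher and 2 lower, with a median of 0.12. The division of the list was made after the values were seen, and the difference between the families was not tested. XTH31 rose, with 12.3, 22.1 and 16.2 CPM in zmp-2, against 3.62, 5.45 and 6.26 CPM in WT (log2 fold change 1.72, standard error 0.270, edgeR adjusted p = 0.0355). XTH24 had 18.6, 14.6 and 13.6 CPM in zmp-2, against 45.4, 51.8 and 76.1 CPM in WT (log2 fold change −1.89, edgeR adjusted p = 0.0623), and XTH30 had a log2 fold change of −1.38 (edgeR adjusted p = 0.134). EXPA1, the most abundant expansin, had 70.2, 106 and 98.6 CPM in zmp-2, against 39.5, 55.0 and 44.5 CPM in WT (log2 fold change 0.98, edgeR adjusted p = 0.143).

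**Figure D5:**
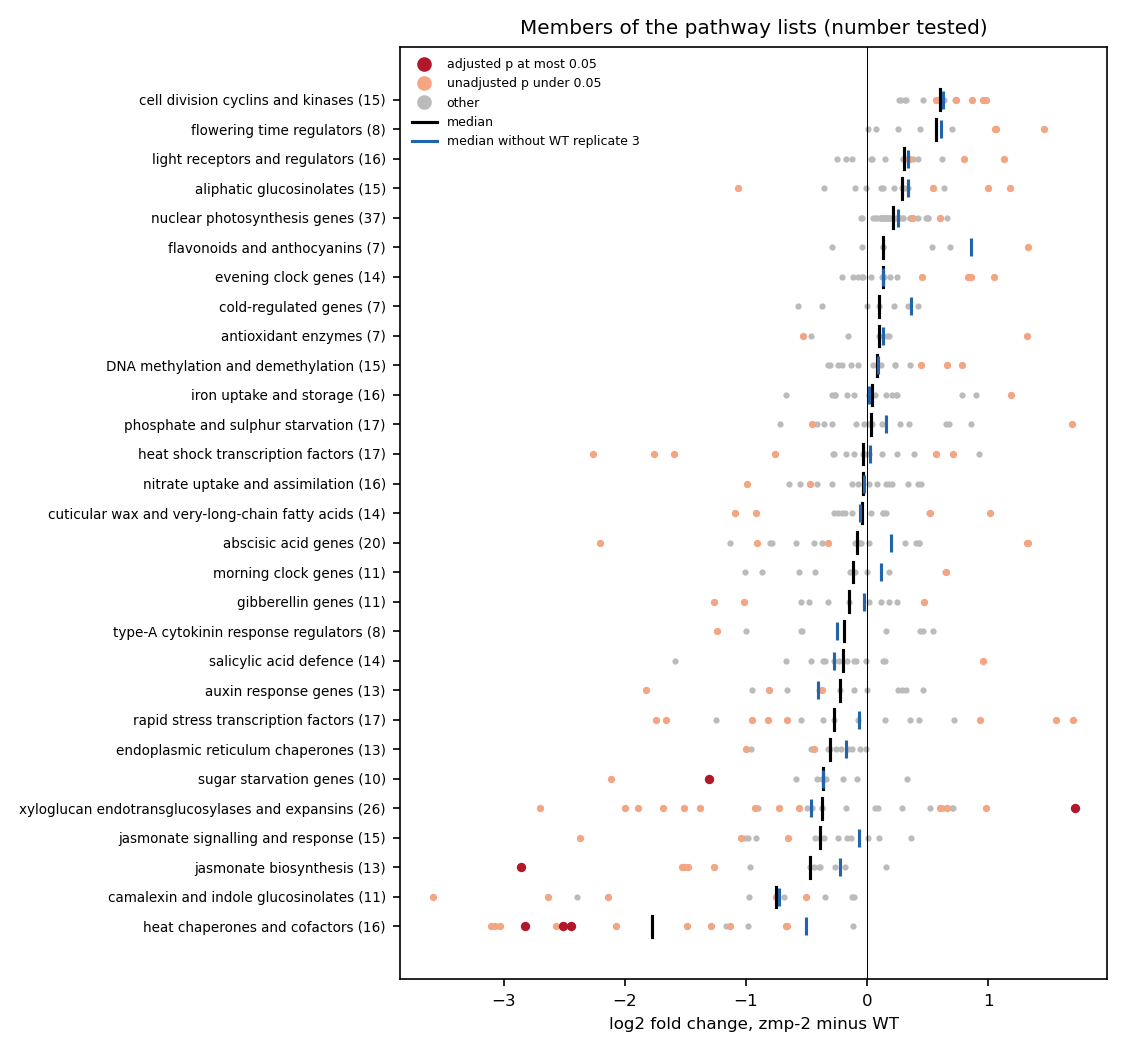
Log2 fold change (x axis) of every tested member of the pathway lists with at least 7 members tested, 1 list per row with its number of tested members, coloured by the test, with the median as a black bar and the median without WT replicate 3 as a blue bar. Heat chaperones have the lowest median, −1.78, which is −0.50 without that library, and cell division genes the highest, 0.60, which is 0.63 without it.

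Other called genes belong to surface, wall and pigment metabolism. PEL3, an acyltransferase needed for the leaf cuticle, rose, with 29.3, 34.9 and 29.1 CPM in zmp-2, against 16.9, 14.0 and 14.8 CPM in WT (log2 fold change 1.03, standard error 0.161, edgeR adjusted p = 0.0355). Among 14 genes of wax and very-long-chain fatty acid synthesis, the fatty acid elongase KCS1 and its regulator MYB96 had log2 fold changes of −1.09 and −0.92 (edgeR adjusted p = 0.0782 and 0.157), whereas CER1, which acts in alkane formation, had 1.01 (edgeR adjusted p = 0.219). AT1G60590, a pectin lyase-like protein, rose, with 18.0, 20.0 and 18.7 CPM in zmp-2, against 4.1, 6.43 and 4.55 CPM in WT (log2 fold change 1.89, standard error 0.225, edgeR adjusted p = 0.0101). MYBL2, a repressor of anthocyanin synthesis, rose, with 28.3, 36.5 and 37.2 CPM in zmp-2, against 9.34, 12.3 and 15.66 CPM in WT (log2 fold change 1.45, standard error 0.212, edgeR adjusted p = 0.0274). Of 18 flavonoid and anthocyanin genes, 7 had enough counts to be tested, and 1 of these, FLS1, was higher at an unadjusted p under 0.05. EXL2, of the EXORDIUM family of extracellular growth proteins, fell, with 39.9, 27.8 and 26.4 CPM in zmp-2, against 75.8, 83.0 and 70.1 CPM in WT (log2 fold change −1.28, standard error 0.186, edgeR adjusted p = 0.0274). The regulators of aliphatic glucosinolates, MYB29 and MYB28, had log2 fold changes of 1.18 and 1.00 (edgeR adjusted p = 0.0707 and 0.144), and the list of 15 genes had a median of 0.29.

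Among nutrient genes and the genes of auxin, cytokinin, gibberellin and abscisic acid, ASN1 was the only listed member called with all libraries. ASN1, an asparagine synthetase that is induced in the dark and by sugar starvation, had 119, 88.7 and 103 CPM in zmp-2, against 276, 286 and 208 CPM in WT (log2 fold change −1.31, standard error 0.204, edgeR adjusted p = 0.0355). The remaining 9 genes of sugar starvation were not called, and the list had 9 of 10 negative values and a median of −0.36. SPX1, a sensor of the phosphate response, had 27.2, 41.7 and 26.9 CPM in zmp-2, against 4.29, 13.5 and 11.6 CPM in WT (log2 fold change 1.69, edgeR adjusted p = 0.143), in a list whose median was 0.03. Among the GH3 enzymes, which conjugate auxin to amino acids, there were 1.78, 1.62 and 3.31 CPM for GH3.3 in zmp-2, against 6.20, 6.30 and 11.5 CPM in WT (log2 fold change −1.82, edgeR adjusted p = 0.0782) and a log2 fold change of −0.81 for GH3.5 (edgeR adjusted p = 0.160). CRF5, a cytokinin response factor, had a log2 fold change of −1.24 (edgeR adjusted p = 0.0782). In abscisic acid metabolism, the hydroxylase genes CYP707A2 and CYP707A1 had values of 1.33 and −0.91, and 20 genes together had a median of −0.08. Lists for cold, gibberellin, nitrate, iron and antioxidant enzymes had medians between −0.15 and 0.10, with between 0 and 3 members at an unadjusted p under 0.05. Single WT libraries moved several of them. Without WT replicate 2, the iron list had a median of 0.53 against 0.05 with all libraries, 10 of 16 members were higher and 1 lower at an unadjusted p under 0.05, and 2 were called higher. The gibberellin median was −0.44 without WT replicate 2, the cold median was 0.36 without WT replicate 3, and the abscisic acid median was 0.20 without WT replicate 3.

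Genes of DNA methylation and demethylation, the process to which ZMP is linked, had no called member among 15, a median of 0.08, and 3 higher at an unadjusted p under 0.05. ROS1, the main DNA demethylase of leaves, had 40.6, 23.7 and 39.9 CPM in zmp-2, against 27.5, 17.39 and 21.2 CPM in WT (log2 fold change 0.66, standard error 0.225, edgeR adjusted p = 0.279). The groups overlapped, since zmp-2 replicate 2 was below WT replicate 1. CMT3 and DML3 had log2 fold changes of 0.45 and 0.78 (edgeR adjusted p = 0.392 and 0.403).

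The remaining genes that rose have single functions. CYP706A6, a cytochrome P450, had 37.4, 34.5 and 37.6 CPM in zmp-2, against 11.0, 8.00 and 9.70 CPM in WT (log2 fold change 1.94, standard error 0.226, edgeR adjusted p = 0.0101). OXS3, known for tolerance of oxidative stress and heavy metals, had 56.3, 53.3 and 53.9 CPM in zmp-2, against 16.5, 22.8 and 12.6 CPM in WT (log2 fold change 1.65, standard error 0.195, edgeR adjusted p = 0.0101). GLR3.5, a glutamate receptor-like channel, had 7.44, 9.48 and 8.88 CPM in zmp-2, against 2.67, 3.48 and 2.53 CPM in WT, and overlaps AT2G32400 on the same strand. These 3 genes were far apart between the genotypes and even within them. AT1G72910, a TIR-domain protein, RMA1, a ubiquitin ligase of the endoplasmic reticulum, AT3G07350, AT5G21940, AT1G78995 and AT1G75945 rose with log2 fold changes between 0.93 and 2.63, and each lost its call with the replicate block, with edgeR adjusted p between 0.0554 and 0.0677. The remaining genes that fell include SAG20, a senescence-associated gene, and AT1G14200, a RING-type protein, with log2 fold changes of −1.10 and −1.27 (edgeR adjusted p = 0.0645 and 0.0604 with the block), and AT5G11330, an FAD-dependent oxidoreductase, with −1.31.

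For 4 called genes, 1 group had few reads. AT1G64795 had 46, 93 and 51 counts in zmp-2, against 1, 0 and 2 counts in WT. Scaled by the library totals, the ratio of zmp-2 to WT was 49.9, with an exact 95% counting interval from 16.8 to 244. AT5G35935 had 32, 25 and 27 counts in zmp-2, against 1, 4 and 0 counts in WT, and AT5G24240, a phosphatidylinositol 4-kinase gamma-like protein, had 1, 2 and 7 counts in zmp-2, against 23, 70 and 40 counts in WT. AT3G19508, of the LYR family of mitochondrial complex assembly factors, had 1, 1 and 2 counts in zmp-2, against 15, 16 and 11 counts in WT (edgeR adjusted p = 0.0355, and 0.0572 with the replicate block). These intervals cover counting error only. Which strand was counted is not stated, and 8 called genes overlap a gene on the opposite strand. What the overlap did to their counts is not known: MBF1C, HSP101, AT2G20560, AT5G24240, ASN1, AT1G14200, AT5G21940 and AT1G64795.

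The second allele gives the same genes side by side, against the same WT libraries. Since the WT libraries are shared, the values are not independent. In zmp-1, 3 genes rose (0.0166% of all tested) and 5 fell (0.0276%). MBF1C, AT2G20560, HSP101 and CYP706A6 had log2 fold changes of −1.97, −2.52, −2.59 and 1.33 in zmp-1, beside −2.44, −2.51, −2.82 and 1.94 in zmp-2, and heat chaperones had a median of −1.73 in zmp-1. The direct comparison of zmp-2 with zmp-1 called 4 genes among 18109, 2 higher and 2 lower in zmp-2 (0.011% in each direction). WT levels do not enter this difference, but its p-values rest on a spread estimated from all 9 libraries, WT included. XTH31 had 12.3, 22.1 and 16.2 CPM in zmp-2, against 0.293, 0.530 and 0.567 CPM in zmp-1 (log2 fold change 5.36, edgeR adjusted p = 0.000229). AT5G11330 had 7.92, 7.09 and 6.36 CPM in zmp-2, against 19.7, 19.4 and 23.2 CPM in zmp-1 (log2 fold change −1.54, edgeR adjusted p = 0.00727). AT3G44970, a cytochrome P450 gene, and the noncoding AT3G06355, which overlaps AT3G41979 on the same strand, differed by −2.0 and 2.31 (edgeR adjusted p = 0.0116 and 0.0476), and neither was called between zmp-2 and WT.

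The calls depended on which library was left out. Without 1 zmp-2 library, between 5 and 7 of the 32 calls remained and no other gene was called. Without WT replicate 1, 2 or 3, there were 110, 52 and 29 calls, of which 27, 25 and 19 were among the 32, and 4 genes, ZMP, MBF1C, CYP706A6 and OXS3, were called in all 6 fits that left out 1 zmp-2 or WT library. With the replicate number as a block, 21 of the 32 calls remained and 11 other genes were called.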

How the data were processed

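Polyadenylated RNA of 3 zmp-2, 3 zmp-1 and 3 WT seedling samples was sequenced by the authors. The deposited files hold raw read counts for 37336 genes per library, and the submitters' processing notes name Trim Galore, STAR 2.5.3a and TAIR10. The strand that was counted is not given in the sources used here. Counts of all 9 libraries were fitted with edgeR 4.0.16 (R 4.3.3) after TMM scaling and filterByExpr, with 1 coefficient per genotype, and p-values were adjusted by the Benjamini-Hochberg method over 18109 genes. The test was checked on simulated data for zmp-2 against WT with 17807 genes, in which 28% of 2-fold and 82% of 4-fold changes were called. Of 121 genes called in the simulation, 110 were among the 200 changed genes, and the others were false calls. The simulated counts were drawn gene by gene, without shifts shared by many genes of a library, such as those of WT replicates 2 and 3. The members, pathway lists and genes named were chosen with earlier results of these data known, and the genes named are those called and, in each list, up to 4 members with the smallest p, the most abundant member and those that give its range. Of 529 listed genes, 517 were matched by symbol or identifier in RefSeq TAIR10.1, which matched 37051 identifiers of the files. Same-numbered zmp-2 and WT libraries deviated together weakly (r = 0.28, 0.21 and 0.13 across genes), against r between −0.30 and 0.08 for differently numbered libraries. The labels do not say that the libraries were paired, and the numbers were treated as pairs only in the fits with a replicate block. Alternatives were scaling, filters, the 6 libraries alone, DESeq2 1.42.0, the replicate block and each library left out.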

Additional observations from a re-analysis of the deposited data

Results flagged for a closer look

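The 2 alleles differed from each other for 4 genes by edgeR's quasi-likelihood test of zmp-2 against zmp-1, adjusted over 18109 genes. XTH31 differed by 5.36 on the log2 scale, was above WT in all 3 zmp-2 libraries, and was below WT in all 3 zmp-1 libraries. AT5G11330 differed by −1.54, AT3G44970 by −2.0 and AT3G06355 by 2.31. AT3G44970 and AT3G06355 were chosen after their values were seen. AT3G44970 had 4.98, 4.86 and 3.31 CPM in zmp-2, 16.9, 14.1 and 21.7 CPM in zmp-1 and 3.43, 3.48 and 4.45 CPM in WT, so that zmp-1 stood apart from both other genotypes.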

How the results depend on the processing

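The counts of calls (16 higher and 16 lower in zmp-2) changed with the settings, while the sign of each of the 32 genes was kept wherever it was tested. Library size without TMM gave 7 higher and 13 lower, no filter on low counts 62 and 68, DESeq2 101 and 117, and an unadjusted p under 0.05 gave 1067 and 1129. The 6 libraries alone gave 1 higher and 0 lower by edgeR (933 and 917 at an unadjusted p under 0.05), with ZMP at −2.35 and an adjusted p of 0.0558. The replicate block gave 13 higher and 19 lower, 21 of them shared with the 32, and the 6 libraries alone with the block, chosen after seeing the data, gave 21 and 24. Leaving out single libraries gave between 2 and 29 higher and between 3 and 89 lower, the extremes being without zmp-2 replicate 2 (2 and 3) and, for higher calls, without WT replicate 2 (29 and 23) or, for lower calls, without WT replicate 1 (21 and 89), and ZMP stayed between −2.49 and −2.21. Leaving out single libraries, HSP70B ranged between −3.66 and 0.15, GPT2 between −2.71 and 0.24 and ZAT12 between −2.17 and 0.10, each positive only without WT replicate 3, and the cause was not tested. Of the list medians recomputed, 704 moved by less than the spread between libraries and 34 by more. With 3 counts as the lowest usable value, depth limits statements on genes with few reads.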

Other observations

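Among gene families taken from the annotated product names, glutathione S-transferases, which conjugate toxic compounds and peroxides to glutathione, had 13 of 36 members lower and 1 higher in zmp-2 at an unadjusted p under 0.05, with a median log2 fold change of −0.51. Over all genes tested, 6.23% were lower and 5.89% higher at that threshold. Peroxidases had 12 of 70 lower and 3 higher, with a median of −0.48. These medians were −0.16 and −0.60 without WT replicate 3, and −0.42 and −0.04 without WT replicate 2. WRKY factors had 8 of 45 lower and 4 higher, with a median of −0.27, and 0.01 without WT replicate 2. Cytochrome P450s had 20 of 138 higher and 13 lower, and UDP-glycosyltransferases, which attach sugars to hormones and secondary metabolites, had 11 of 78 higher and 3 lower. Without WT replicate 1 these counts were 14 higher and 25 lower for cytochrome P450s, and 8 higher and 8 lower for UDP-glycosyltransferases. Ribosomal proteins had 4 of 302 higher and 3 lower, with a median of −0.04. Without WT replicate 2 they had 8 higher and 18 lower, with a median of −0.16, and without WT replicate 1 they had 12 higher and 3 lower.

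GLL22 (AT1G54000), a GDSL-type lipase-like gene singled out after its values were seen, had 0, 2 and 0 counts in zmp-2, against 14, 163 and 15 counts in WT. It was not called (edgeR adjusted p = 0.0694), and WT replicate 2 held most of its reads.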
